A study of Mus musculus with 6 samples.

Results

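The genes described here are the core of the Nodal pathway: the ligand Nodal, its secreted antagonists Lefty1 and Lefty2, the co-receptor gene Tdgf1 (Cripto), the receptor genes Acvr1b, Acvr2a and Acvr2b, and the effector genes Smad2, Smad3 and Foxh1. These 10 genes were chosen by gene symbol, and 9 of them had a row among the 14005 genes of the expression table. Lefty1 was not listed under its symbol or its Ensembl identifier, and it is not analysed here. The other 9 all passed the filter on low values, which kept 13991 genes with at least 0.5 CPM, the reads on a gene scaled to the total of its library, in at least 3 libraries. RNA was sequenced from FLK1+ mesodermal cells of day 3.5 embryoid bodies (EBs), aggregates in which mouse embryonic stem (ES) cells differentiate in serum-containing medium, and the cells were isolated on magnetic columns with an antibody to FLK1. The 2 groups were wild-type (WT) J1 cells and cells of an Scl-/- ES line, in which the gene for the blood transcription factor SCL (TAL1) is disrupted, with 3 libraries each, numbered 1 to 3, from independent differentiations. The study's methods name a single Scl-/- line, so genotype and cell line cannot be told apart. The strain label reads C57Bl/6 X Sv129 for 3 libraries, and Sv130, Sv131 and Sv132 for the other three.

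Nodal is a secreted ligand of the TGF-beta superfamily that signals through activin receptors. A type II receptor, ACVR2A or ACVR2B, phosphorylates the type I receptor ACVR1B (ALK4), and the membrane-anchored protein CRIPTO, the product of Tdgf1, is needed for Nodal to use this complex. The receptor phosphorylates SMAD2 and SMAD3, which enter the nucleus with SMAD4 and bind target genes together with the forkhead factor FOXH1. Nodal itself and the Lefty genes are classical targets, and the LEFTY proteins block Nodal at the receptor and co-receptor, so the pathway restrains itself. In the gastrulating embryo, graded Nodal signalling patterns the primitive streak into endoderm and mesoderm.

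The reads on listed genes numbered between 38623641 and 47621120 per library, as worked out from the value of a single read in each column, and 3 reads on a gene corresponded to between 0.0615 and 0.0784 CPM. This floor covers counting error only. Tal1, the targeted gene, had 303, 182 and 306 CPM in WT and 9.35, 5.68 and 5.87 CPM in Scl-/- libraries. The defining marker Kdr, which encodes FLK1, lay between 724 and 868 CPM in all 6 libraries, and 6 of 6 FLK1+ mesoderm markers were listed. Of the markers of other cell types, 6 of 6 visceral endoderm and 5 of 6 neurectoderm markers were not listed. The listed neurectoderm marker, Pax6, lay between 12.7 and 15.5 CPM in the 6 libraries. Nascent mesoderm and streak markers were listed for 6 of 6 genes, and pluripotent and definitive endoderm markers for 5 of 6 each. Libraries with the same number deviated together from their group means (r = 0.59 to 0.76 across genes). The values for different numbers, -0.62 to -0.10, are partly forced to be negative, because deviations from a group mean cancel out. The fit with the replicate number as a block is given beside the fit with condition only. A gene was called at a Benjamini-Hochberg adjusted p from limma under 0.05 with a log2 fold change of more than 0.48 in either direction. All log2 fold changes are Scl-/- against WT, on the log2(CPM + 0.5) scale.

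Lefty2 and Lefty1 are neighbouring copies on chromosome 1 of mm9, with Lefty2 from 182823239 to 182829234 and Lefty1 from 182865153 to 182868531, both on the plus strand. Their coding sequences, each of 1107 bases, were identical at 91.9% of positions, with a longest identical run of 140 bases. Of the 50-base words of the Lefty2 coding sequence, 26.6% also occurred in that of Lefty1. Reads from such stretches cannot be assigned to either copy. The authors kept reads with a mapping quality over 15, a filter that removes reads TopHat2 places equally well on both copies, so these stretches would add few reads to either gene. The stretch of 60 coding bases with the most differences, 18, is shown for both genes because it lets reads of the copies be told apart. It lies in exon 1 of 4, at chr1:182823348-182823407 in Lefty2 and at chr1:182865274-182865333 in Lefty1 (mm9, plus strand), and capitals mark the positions that differ.
Lefty2: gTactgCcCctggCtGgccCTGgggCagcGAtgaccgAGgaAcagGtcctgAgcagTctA
Lefty1: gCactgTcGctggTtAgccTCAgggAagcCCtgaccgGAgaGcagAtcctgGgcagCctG

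Lefty2 was the pathway gene with the largest difference between the conditions. Its level was 2.06, 18.8 and 5.15 CPM in the WT libraries numbered 1 to 3 and 7.69, 123 and 79.8 CPM in the Scl-/- libraries of the same numbers. The Scl-/- library was the higher one in all 3 pairs, but Scl-/- replicate 1 was below WT replicate 2, so the groups overlapped. The means were 8.66 ± 8.89 CPM in WT and 70.3 ± 58.4 CPM in Scl-/- cells (SD, n = 3 each). The log2 fold change was 2.73, with a standard error of 1.09 and a limma adjusted p of 0.251 with condition only. With the replicate block the standard error was 0.33 and limma's adjusted p was 0.00114, so Lefty2 rose in Scl-/- cells in this fit. The within-pair log2 differences were 1.68, 2.68 and 3.83 for replicates 1, 2 and 3. Here and below, limma's standard errors and p-values also draw on the variance of other genes. They do not measure the spread of the 3 differences alone, which for Lefty2 is wide. The call with the block held without each pair in turn, with log2 fold changes from 2.18 to 3.26. Fits without a pair, for this and the other genes, hold fewer libraries and still draw on other genes. Calls in them are a weak check. In bulk RNA, more cells that express a gene and more RNA per cell cannot be told apart.

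Tdgf1, which encodes the Nodal co-receptor CRIPTO, lies at chr9:110842114-110848662 (mm9, minus strand) and followed the same order of libraries. Its level was 75.0, 322 and 119.8 CPM in the WT libraries numbered 1 to 3 and 196, 632 and 447 CPM in their Scl-/- counterparts. As for Lefty2, only WT replicate 2 reached into the range of the Scl-/- libraries. The means were 172 ± 131 CPM in WT and 425 ± 219 CPM in Scl-/- cells (SD, n = 3 each). The log2 fold change was 1.42 (standard error 0.59, limma adjusted p = 0.268 with condition only). With the block, Tdgf1 rose in Scl-/- cells (standard error 0.15, limma adjusted p = 0.000575), and it was called without each pair in turn, at 1.18 to 1.64. The annotation also holds a pseudogene of Tdgf1, with which reads could be shared.

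Nodal, the ligand gene at chr10:60880720-60888086 (mm9, plus strand), was low in all libraries and did not pass the thresholds. The WT libraries (replicates 1 to 3) held 2.76, 6.87 and 1.77 CPM and the Scl-/- libraries 2.85, 7.78 and 4.47 CPM, which rest on 73 to 322 reads per library. The pair numbered 2 was the highest of both groups, and pairs 1 and 2 hardly differed within themselves. The log2 fold change was 0.45, with a 95% interval of -0.06 to 0.95 with the block and a limma adjusted p of 0.183 (0.743 with condition only). Its within-pair log2 differences were 0.039, 0.17 and 1.13, so most of the mean came from replicate 3. Without the pair numbered 1, Nodal was called with the block, at a log2 fold change of 0.65 (limma adjusted p = 0.0494), and without pair 3 the value was 0.10.

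**Figure D1:**
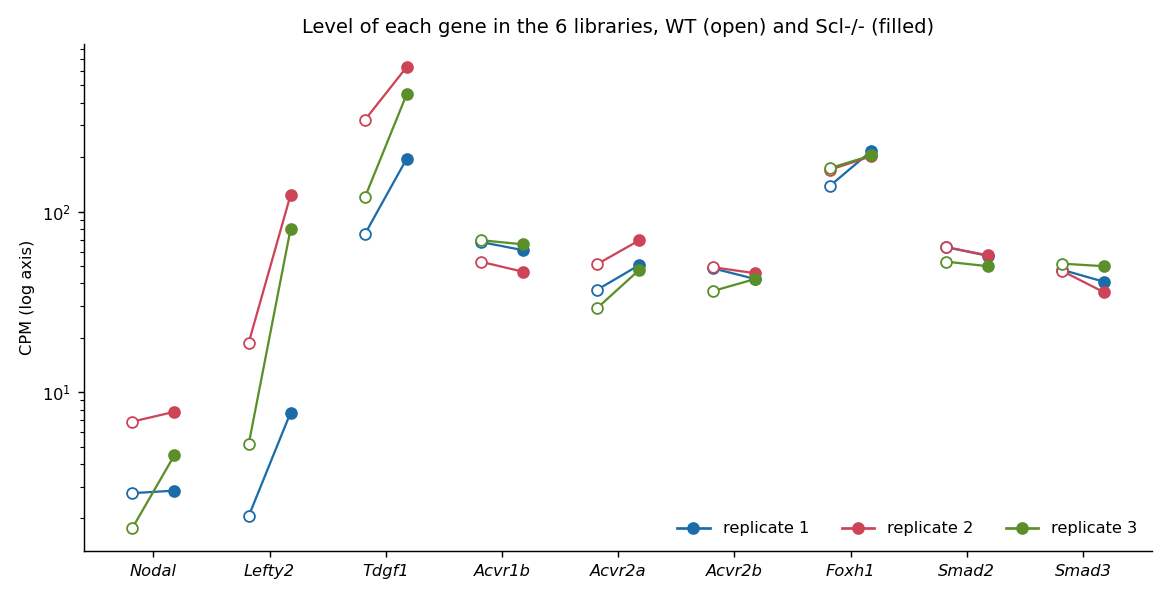
CPM of the 9 listed genes on a log axis, with open points for WT, filled points for Scl-/- and a line joining libraries with the same replicate number. Lefty2 runs from 2.06 to 123 CPM and Tdgf1 from 75.0 to 632 CPM, with an upward line in every pair, while the lines of Acvr1b, Smad2 and Smad3 slope slightly down.

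Set against its ligand within each library, Lefty2 had a log2 ratio to Nodal of -0.35, 1.39 and 1.31 in WT replicates 1 to 3. The log2 ratio in Scl-/- replicates 1 to 3 was 1.29, 3.90 and 4.01. The Scl-/- library was higher in 3 of 3 pairs, by 1.64, 2.52 and 2.70, and Scl-/- replicate 1 lay just below the upper WT values. The mean difference was 2.29. An exact two-sided permutation test over the libraries, which ignores the pairs, gave p = 0.3, where the smallest p it allows is 0.1. An exact test that flips signs within pairs gave p = 0.25, the smallest value that 3 pairs allow, so it cannot decide.

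The receptor genes lie at chr2:48669629-48758789 (Acvr2a), chr15:101004556-101043032 (Acvr1b) and chr9:119311562-119342619 (Acvr2b), all on the plus strand of mm9. Acvr2a was higher in Scl-/- cells in every pair and the type I receptor gene Acvr1b and the other type II receptor gene Acvr2b were not called in either fit. In replicates 1 to 3, Acvr2a stood at 37.0, 51.2 and 29.3 CPM in WT and at 50.5, 69.2 and 47.5 CPM in Scl-/- cells, and WT replicate 2 again overlapped the Scl-/- group. Its log2 fold change was 0.52 (standard error 0.23, limma adjusted p = 0.292 with condition only). With the block it rose (standard error 0.080, limma adjusted p = 0.00351), close above the threshold of 0.48. Without the pair numbered 3 the log2 fold change was 0.44, and Acvr2a was not called. Its annotated span overlaps Orc4 on the opposite strand by 446 bases, and whether the libraries were stranded is not given in the sources used here.

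Acvr1b was at 67.8, 52.7 and 69.4 CPM in the WT libraries numbered 1 to 3 and at 61.2, 46.5 and 65.9 CPM in the Scl-/- libraries of these numbers. It was lower in the Scl-/- library of each pair, with a log2 fold change of -0.13 and a 95% interval of -0.29 to 0.02 with the block (limma adjusted p = 0.187). For Acvr2b, the WT libraries (replicates 1 to 3) held 48.4, 49.2 and 36.4 CPM and their Scl-/- counterparts 42.3, 45.6 and 42.4 CPM, and the pairs did not share a direction. Its log2 fold change was -0.03, with a 95% interval of -0.24 to 0.19 with the block (limma adjusted p = 0.865). Both intervals lay within 0.48 of 0.

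Among the effectors, Foxh1 (chr15:76498714-76500378, mm9, minus strand) was the only one of the 9 genes whose groups did not overlap. The level of this transcription factor gene was 138, 170.4 and 174 CPM in the WT libraries numbered 1 to 3 and 217, 203 and 205 CPM in Scl-/- cells. The log2 fold change was 0.38, with a limma adjusted p of 0.138 with condition only and 0.018 with the block. It was not called, because the change was below 0.48. Without the pair numbered 2, limma's adjusted p with the block was 0.0607. Over all tested genes, the groups did not overlap for 21.6%, with Scl-/- higher for 11%.

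The SMAD genes showed slightly lower values in Scl-/- cells and were not called. Smad2 was at 63.7, 63.6 and 52.9 CPM in the WT libraries numbered 1 to 3 and at 56.9, 57.3 and 49.9 CPM in Scl-/- cells. The log2 fold change was -0.13, with a 95% interval of -0.28 to 0.02 with the block (limma adjusted p = 0.196). Smad3 was at 47.6, 47.0 and 51.5 CPM in WT and at 40.9, 35.8 and 49.8 CPM in the Scl-/- libraries. Its log2 fold change was -0.22, with a 95% interval of -0.41 to -0.02 with the block, and limma's adjusted p was 0.102. Both were lower in the Scl-/- library of each pair, by less than the threshold in every pair.

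Counted over the pathway, 0 of 9 genes were called by limma with condition only, against 2.36% of all tested genes. In that fit 3 of 9 (Lefty2, Tdgf1 and Foxh1) had an unadjusted p under 0.05, against 17.7% of all tested genes. With the replicate block 3 of 9 were called, all higher in Scl-/- cells, against 12.6% of all tested genes called, 6.04% higher and 6.6% lower. In all 3 pairs the Scl-/- library was higher for 5 of 9 genes, against 29.8% of all tested genes, and lower for 3 of 9 (Acvr1b, Smad2 and Smad3), against 26.4%. When the adjusted p alone was used with the block, an alternative that was added once the data had been seen, 4 of 9 passed (Foxh1 beside Lefty2, Tdgf1 and Acvr2a), against 24.2% of all tested genes. The median log2 fold change of the 9 genes was 0.38, beside 0.009 over all tested genes, and their values ran from -0.22 to 2.73.

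**Figure D2:**
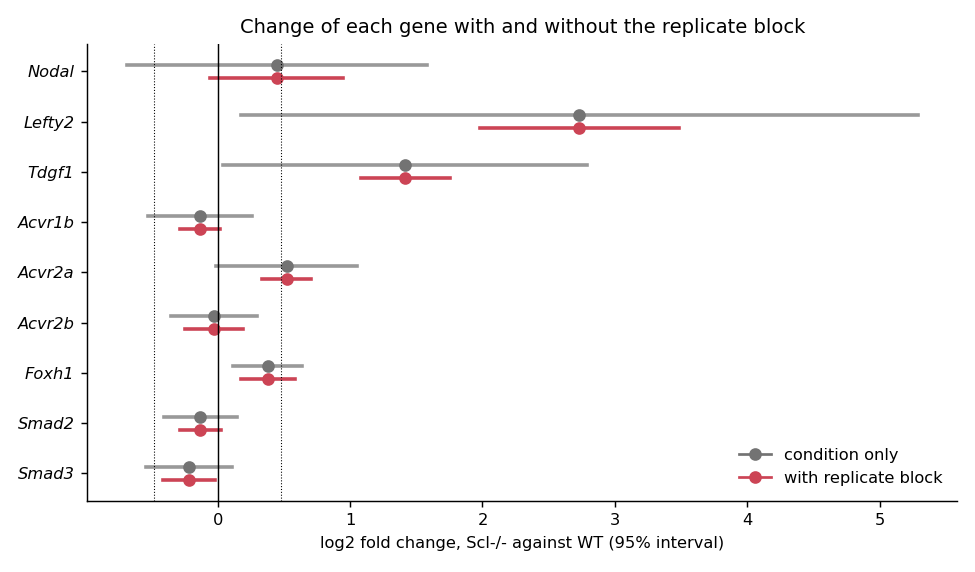
Log2 fold changes (Scl-/- against WT) of the 9 genes with their 95% intervals from limma, in grey for condition only and in red with the replicate block, with dotted lines at 0.48 on either side of 0. With the block, the intervals of Lefty2, Tdgf1, Acvr2a and Foxh1 lie above 0, and that of Smad3 lies below 0.

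The differentiations themselves differed in these genes. In limma's F-test of the replicate number beside condition, 5 of 9 genes passed an adjusted p of 0.05, against 32.5% of all tested genes. These were Tdgf1 (0.00247), Lefty2 (0.00434), Acvr2a (0.0078), Acvr1b (0.0123) and Nodal (0.017), with limma's adjusted p in brackets. Within WT, the highest library exceeded the lowest 9.12-fold for Lefty2, 4.29-fold for Tdgf1 and 3.88-fold for Nodal. Within Scl-/- cells these ratios were 16.0, 3.22 and 2.73. By contrast, the highest and lowest libraries of a condition differed by at most 1.42-fold for Acvr1b, Acvr2b, Foxh1, Smad2 and Smad3. Replicate 2 was the highest of both conditions for Lefty2, Tdgf1, Nodal and Acvr2a, and the lowest of both for Acvr1b.

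**Figure D3:**
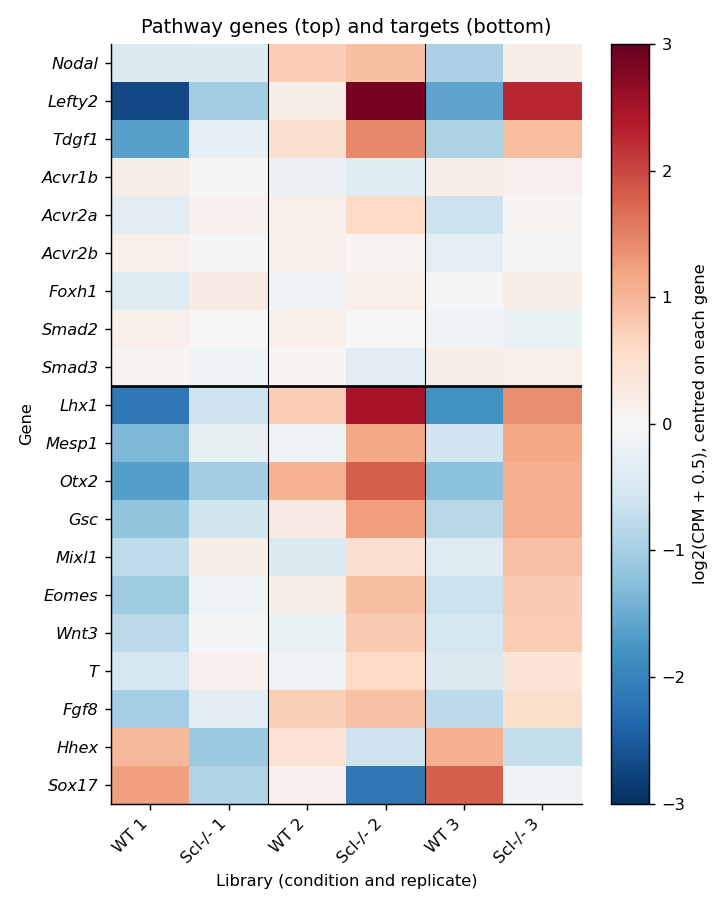
log2(CPM + 0.5) of each gene, centred on its mean over the 6 libraries, with libraries of the same replicate number side by side, the 9 pathway genes above the line and mesendoderm target genes below it. Lefty2, Tdgf1 and Lhx1 are lowest in WT replicate 1 and highest in Scl-/- replicate 2, whereas the rows of Smad2, Smad3, Acvr1b and Acvr2b stay pale.

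Per kilobase of annotated exon, the level of Foxh1 was the highest in WT, at 123 ± 14.95 CPM per kb (SD, n = 3). It was followed by Tdgf1 with 89.5 ± 68.3 CPM per kb (SD, n = 3), and the ranges of these genes overlapped. The receptor and SMAD genes were lower, with mean levels of 25.5 CPM per kb for Acvr2b, 19.3 for Acvr1b, 16.9 for Smad2, 8.79 for Smad3 and 6.88 for Acvr2a. Neighbours in this order overlapped, except that every library had more Tdgf1 than Acvr2b and more Smad2 than Smad3. Lefty2 and Nodal had the lowest levels, with 3.32 ± 3.40 and 1.81 ± 1.29 CPM per kb (SD, n = 3), and did not differ beyond their spread. In Scl-/- cells the level of Tdgf1 was 221 ± 114 CPM per kb (SD, n = 3) and that of Foxh1 was 159 ± 5.99 CPM per kb (SD, n = 3). The level of Lefty2, at 26.9 ± 22.4 CPM per kb (SD, n = 3), then came next in the order, overlapping those of all the receptor and SMAD genes, and Nodal stayed lowest at 2.40 ± 1.201 CPM per kb (SD, n = 3).

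Lefty2 lies on chromosome 1, whose genes were lower in Scl-/- cells as a whole. Over its 789 tested genes the median log2 fold change was -0.29. The medians of the 18 chromosomes other than 1, 11 and Y lay between -0.016 and 0.031. The remaining genes of the pathway lie on chromosomes 2, 9, 10, 15 and 18. Around Lefty2, 12 other tested genes started within 0.5 Mb of Lefty2 or Lefty1, and 9 of them had a negative log2 fold change, with a median of -0.31. Sde2, whose start lies at -42.0 kb from that of Lefty2, had a log2 fold change of -0.37 (limma adjusted p = 0.00749 with the block). The other gene called higher with the block was Mixl1, a homeobox gene of the primitive streak at -200.1 kb, with a log2 fold change of 1.04 (0.000141), and the gene called lower was Parp1 at -0.56 (0.00165). Tmem63a, which starts downstream of Lefty1, had a log2 fold change of 0.44 and was not called (0.131). When the median deviation of each chromosome was removed from each library, the log2 fold change of Lefty2 was 3.02, with a limma adjusted p of 0.254 with condition only and 0.000784 with the block.

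**Figure D4:**
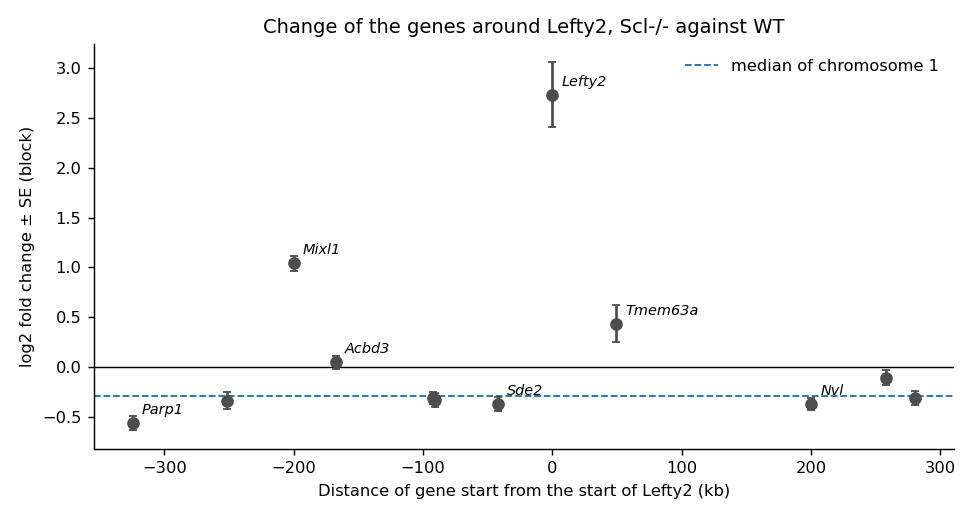
Log2 fold change with its standard error (replicate block) of Lefty2 and tested genes around it, by distance of their start from the start of Lefty2 in kb, with a dashed line at the median of chromosome 1. Lefty2 and Mixl1 stand above 1, Tmem63a and Acbd3 lie between 0 and 1, and the other genes drawn lie below 0.

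RefSeq promoter windows of 300 bases on GRCm38.p6, which lie mostly ahead of the gene start, were at hand for 6 of the 10 genes: Nodal, Tdgf1, Acvr1b, Acvr2a, Acvr2b and Smad3. The windows of Tdgf1 and Acvr2a are shown because these genes rose with the block, and they differ in base composition. Both strands were searched for the FOXH1 motif AATNCACA, the SMAD palindrome GTCTAGAC, the E-box CANNTG and the GATA motifs AGATAA and TGATAA, which do not overlap in these windows. The window of Tdgf1, at chr9:110946109-110946408 on the minus strand, held 41.7% G and C and matched 2 E-boxes and 1 GATA motif, in capitals. The window of Acvr2a, at chr2:48813859-48814158 on the plus strand, held 80.3% G and C and no match. The median over all 32851 windows was 52.7% G and C.
Tdgf1: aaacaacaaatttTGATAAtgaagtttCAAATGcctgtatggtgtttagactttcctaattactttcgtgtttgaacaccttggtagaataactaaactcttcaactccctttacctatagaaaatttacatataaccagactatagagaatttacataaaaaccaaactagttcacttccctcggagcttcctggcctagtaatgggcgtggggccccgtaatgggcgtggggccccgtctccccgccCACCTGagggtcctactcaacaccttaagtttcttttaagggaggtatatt
Acvr2a: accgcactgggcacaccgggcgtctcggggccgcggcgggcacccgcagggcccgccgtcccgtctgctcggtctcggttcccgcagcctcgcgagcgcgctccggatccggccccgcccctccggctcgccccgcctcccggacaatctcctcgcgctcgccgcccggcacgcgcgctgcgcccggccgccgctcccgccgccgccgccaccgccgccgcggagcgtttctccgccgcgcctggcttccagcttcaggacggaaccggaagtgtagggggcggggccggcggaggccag
An E-box occurred in 72.3% and either GATA motif in 18.6% of all windows, the FOXH1 motif in 3.60% and the SMAD palindrome in 0.213%. None of the 6 windows held the FOXH1 motif or the palindrome, and the only other E-box was in that of Acvr1b. A match or its absence in such a window is a description of these letters only.

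Other genes of the pathway, together with mesendoderm target genes, were taken from a list of 42 genes arranged by role, of which 37 were listed and tested. With condition only 4 were called (3 higher, 1 lower), against 2.36% of all tested genes, with 0 without WT replicate 1, 2 without WT replicate 3, Scl-/- replicate 2 or Scl-/- replicate 3, and 7 without Scl-/- replicate 1. With the block 19 were called (14 higher, 5 lower), against 6.04% of all tested genes called higher and 6.6% called lower. Mesendoderm target genes made up 11 of these 19. Across the tested genes of the list the median log2 fold change was 0.12, beside 0.009 over all tested genes. Of the ligands that share these receptors, Gdf1, which can act with Nodal, rose with the block at a log2 fold change of 0.75 (limma adjusted p = 0.00124), and Inha, which encodes the inhibin alpha subunit, fell at -0.72 (0.0158). Inha lies on chromosome 1, and with chromosome medians removed it was not called (-0.43, limma adjusted p = 0.135 with the block), while the other 18 genes of the list called with the block were. Gdf1 shares 1823 bases on the same strand with Lass1, so its reads cannot be assigned with certainty. Gdf3, Inhba and Inhbb were not listed, nor was the receptor gene Acvr1c, and the co-receptor gene Cfc1 (Cryptic) had a log2 fold change of -0.25 (0.213).

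Of the convertase genes, Pcsk5 rose with the block at a log2 fold change of 0.69 (limma adjusted p = 0.00533). Furin (-0.20) and Pcsk6 (-0.40), whose products cleave the Nodal precursor, were not called. Pcsk6 was lower in the Scl-/- library of each pair (limma adjusted p = 0.0301 with the block), but its change was below 0.48. Among the other secreted antagonists, only Fst was called with the block. This gene encodes follistatin, which binds activins, and its level was 21.7, 69.6 and 20.4 CPM in the WT libraries numbered 1 to 3 and 46.1, 118 and 67.2 CPM in Scl-/- cells. Replicate 2 was again the highest of both groups, and the log2 fold change was 1.17 (limma adjusted p = 0.00168 with the block, 0.294 without). Cer1, which encodes the Nodal antagonist Cerberus, reached at most 2.88 CPM in any library and had a log2 fold change of 0.85 (0.0962 with the block).

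Among 15 SMAD partners and brakes, 4 were called with the block, 2 in each direction, against 6.04% of all tested genes called higher and 6.6% called lower. Smurf2, a ubiquitin ligase gene, had a log2 fold change of 1.24 and Pmepa1, which encodes a membrane inhibitor of SMAD activation, had a log2 fold change of 0.96. Both rose in either fit, with limma adjusted p of 0.00819 and 0.0198 with condition only. Smurf2 lies on chromosome 11, over which the median log2 fold change was 0.31. With the block, the inhibitory gene Smad7 fell at -0.51 (limma adjusted p = 0.00924), as did Dact2, whose product promotes the loss of Nodal receptors, at -1.36 (0.000401). The common partner Smad4 had a log2 fold change of -0.09 and was not called.

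Of 12 tested mesendoderm target genes, 9 rose and 2 fell with the block, against 6.04% and 6.6% of all tested genes. With condition only 2 were called, against 2.36%. Lhx1, a LIM homeobox gene, stood at 28.7, 216 and 36.5 CPM in the WT libraries numbered 1 to 3 and at 83.4, 721 and 340 CPM in Scl-/- cells, and its log2 fold change was 2.15 (limma adjusted p = 0.00145 with the block). The streak genes Eomes, Mixl1, T and Wnt3 had log2 fold changes of 1.03, 1.04, 0.74 and 0.99, Mesp1 of 1.40, Gsc of 1.19, Otx2 of 1.23 and Fgf8 of 0.71, all called with the block. Sox17 and Hhex, which also act in endothelium, fell at -2.10 and -1.64, Hhex in either fit (limma adjusted p = 0.0102 with condition only), and Foxa2 was not listed. With chromosome medians removed, Lhx1 and Wnt3, on chromosome 11, had log2 fold changes of 1.85 and 0.68. Mixl1 and Sox17, on chromosome 1, then had values of 1.33 and -1.81. The list was drawn up with earlier results of these libraries known, so its direction is not independent evidence.

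**Figure D5:**
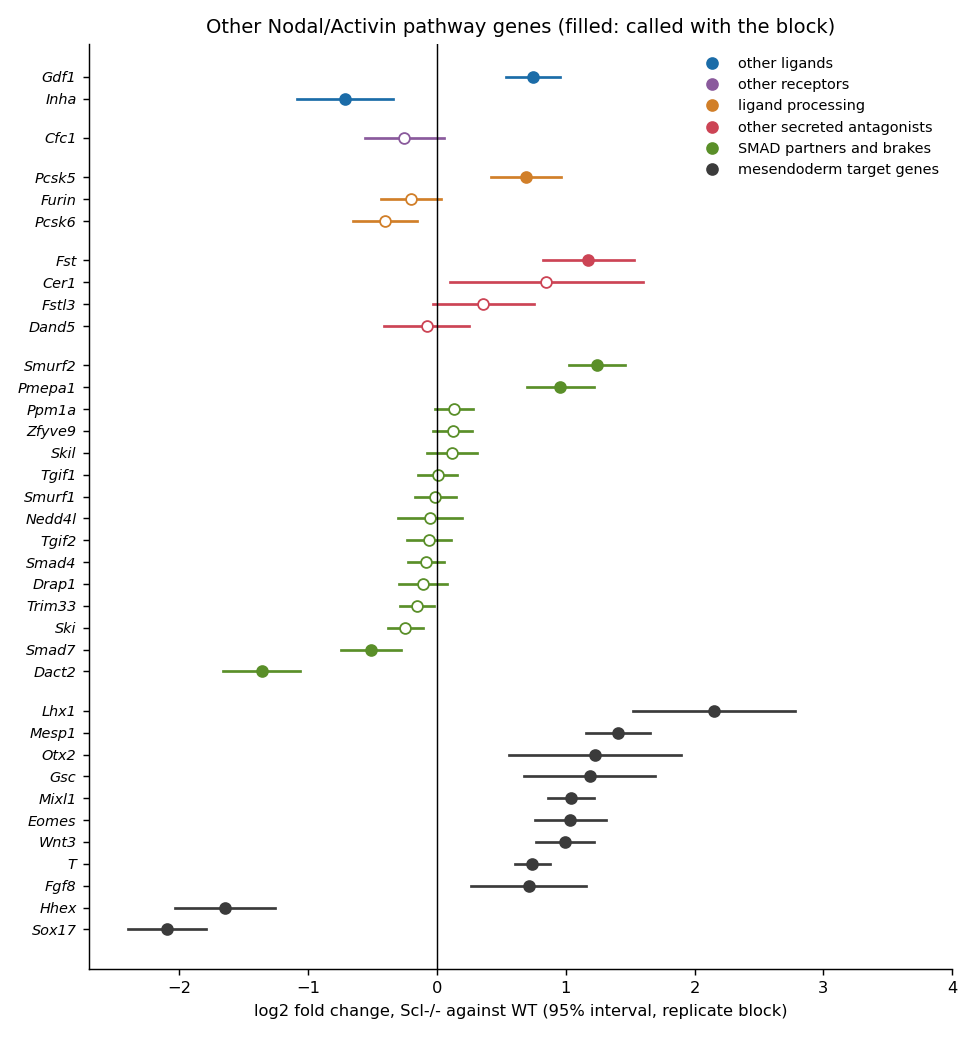
Log2 fold changes of tested genes of the wider list with 95% intervals from limma with the replicate block, coloured by role, with filled points for genes called with the block. The mesendoderm targets carry 11 of the 19 filled points, 9 of them to the right of 0.

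Markers of cell states also differed between the conditions, some higher and some lower in Scl-/- cells. The summed level of 6 nascent mesoderm and streak markers (T, Mesp1, Mixl1, Eomes, Pdgfra and Tbx6, some of which are also in the target list) was 619.8 to 1056 CPM in WT and 1109 to 1875 CPM in Scl-/- libraries, and 6 of 6 were called higher with the block, against 6.04% of all tested genes. The 5 listed pluripotent and epiblast markers (Pou5f1, Nanog, Sox2, Zfp42 and Fgf5) summed to 87.6 to 155 CPM in WT and 90.1 to 235 CPM in Scl-/- libraries. Pou5f1 had the largest share of this sum in every library. With the block, 3 were called higher (Pou5f1, Nanog and Fgf5), against 6.04% of all tested genes, and 0 lower. Sox2 and Zfp42 had log2 fold changes of -0.04 and -0.14 and were not called. The 6 FLK1+ mesoderm markers, which include the targeted gene Tal1, summed to 1829 to 2340 CPM in WT and 1349.95 to 1615 CPM in Scl-/- libraries. With the block, 3 of them were called lower (Tal1, Gata2 and Lmo2), against 6.6% of all tested genes, and 1 higher (Etv2), against 6.04%. Etv2 rose in either fit (log2 fold change 0.78, limma adjusted p = 0.0175 with condition only). The 5 listed definitive endoderm markers summed to 93.5 to 127 CPM in WT and 34.6 to 67.5 CPM in Scl-/- libraries, a sum in which Hhex had the largest share in WT. With the block, 3 of them were called lower (Sox17, Hhex and Trh) and 1 higher (Gsc), against the same shares of all tested genes. Cer1 was higher in all 3 pairs but not called. The part of these marker differences in the change of Lefty2, Tdgf1 and Acvr2a was not tested.

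Over the 6 libraries, the genes whose centred log2(CPM + 0.5) values lay closest to those of Lefty2, by root mean square difference among the 13521 genes that averaged 1 CPM or more, were Lhx1 (0.54), Dll3 (0.77) and Otx1 (0.81). Among the pathway genes the closest to Lefty2 was Tdgf1, at 1.01, and Nodal was at 1.56. The genes closest to Nodal were Plxna4 (0.10), Tenm4 (0.11) and Gm15413 (0.13), and among the pathway genes Acvr2a was closest to it, at 0.38. Genes with small spread lie close to each other by this measure, and 6 libraries leave room for many such neighbours.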

How the data were processed

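RNA-seq libraries of day 3.5 FLK1+ cells were analysed, 3 WT and 3 Scl-/-, grouped by the genotype label. Per the labels and the methods, the authors aligned reads to mm9 with TopHat2 2.0.8b, removed duplicate read pairs, kept mapping qualities over 15 with SAMtools 0.1.19 and normalised with edgeR's TMM method. The values they deposited are CPM, 1 column per library. The counter, gene annotation and strandedness are not given in the sources used here. Removing duplicates can compress high values, and mapping-quality filters can lower counts of near-identical genes.

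CPM values were whole multiples of 1 step per library (100% within 0.01 reads), which gave the reads per library. The deposited unit is CPM and low values were sparse, and no count model was run. Genes with at least 0.5 CPM in 3 libraries (13991 of 14005) were tested on log2(CPM + 0.5) with limma 3.58.1 in R 4.3.3 (eBayes, variance prior following mean intensity). The model held condition alone, and then also the replicate number as a block. The block follows the 3 independent differentiations of the study's design, and each same-numbered pair correlated (r = 0.59, 0.76 and 0.75). P-values were adjusted over all genes tested. The fits were tested on simulated data with the same fold change in every pair and less spread between replicates than Lefty2 showed. That test does not cover genes such as Lefty2.

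Positions and exon lengths come from the GENCODE annotation of mm9. Promoters are RefSeq windows of GRCm38.p6 and were used for their letters only. Python 3.11.15 was used for the remaining steps, with pandas 2.3.3, SciPy 1.17.1, NumPy 2.4.6 and Matplotlib 3.10.9. The genes named are the 10 pathway genes, Tal1, genes of the wider list called in either fit, genes within 0.5 Mb of Lefty2 or Lefty1, and the 3 genes most like Lefty2 and Nodal. Wider-list genes not called, marker genes, neighbours printed and the pathway gene closest to each were chosen after their values were seen. The pathway genes, lists and thresholds were chosen with earlier results of these data known. Alternatives were other pseudocounts and filters, the block, rescaling by median ratios, removal of chromosome medians, a constant variance prior, the adjusted p without a fold-change threshold, and leaving out each library or pair. Some genes that entered these counts are not reported here by name and are not drawn.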

Additional observations from a re-analysis of the deposited data

How the results depend on the processing

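With the replicate block, 1768 genes, 3 pathway genes and 19 genes of the wider list were called, against 330, 0 and 4 with condition only. With the block and without replicate 1, 2 or 3 the counts were 2062, 1122 and 1210 genes, 4, 3 and 2 pathway genes and 21, 16 and 16 genes of the wider list. With the block and chromosome medians removed they were 1495, 3 and 18. In settings chosen after seeing the data they were 1774, 3 and 19 with the block and median-ratio rescaling, and 3385, 4 and 22 with the block and the adjusted p alone. Without each library in turn and with condition only, between 44 (without WT replicate 1) and 384 genes, 0 pathway genes and between 0 (without WT replicate 1) and 7 (without Scl-/- replicate 1) genes of the wider list were called. The wider list gave 2 calls without WT replicate 3, Scl-/- replicate 2 or Scl-/- replicate 3, where 128, 129 and 162 genes were called. The cause of these differences was not tested.

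Without each library in turn, Acvr1b ran from -0.26 to 0.015 and Acvr2b from -0.17 to 0.047 on the log2 scale. Acvr2b reversed to 0.036 without WT replicate 1, 0.047 without WT replicate 2, and 0.054 and 0.012 with the block and without replicate 1 or 2, and Acvr1b to 0.015 without Scl-/- replicate 2. None of these values was called. Of the 189 values of single pathway genes under the alternatives, 162 kept their direction and side of the thresholds, 22 became called and 5 reversed. With condition only, no pathway gene was called under any pseudocount, filter, scaling or trend setting tried. The difference in the log2 ratio of Lefty2 to Nodal was 1.72 to 3.18 without each library in turn. Between differentiations, 5 pathway genes differed in each setting tried except without the intensity trend, where 4 did. The planned sum of Lefty1 and Lefty2 was not run, because Lefty1 was not listed, and its ratio to Nodal was replaced by that of Lefty2 alone. Nodal rests on the fewest reads, and an effect of its size could not be told from the spread between pairs.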
